A study of Mus musculus with 6 samples.

Results

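Transcript levels of 10 transcription factors of exhausted and effector CD8+ T cells were measured in 6 RNA-seq libraries: Tox, Tox2, Nr4a1, Nr4a2, Nr4a3, Prdm1, Id2, Tbx21, Eomes and Ikzf2. They were taken by name from the 15898 genes of the deposited count table, all 10 were found there, and all 10 were among the 15477 genes tested. The cells were naive Thy1.1+ PMEL T cells, which carry the receptor transgene Tg(TcraTcrb)8Rest/J on the B6.Cg-Thy1a/Cy background and recognise the melanoma antigen gp100. Mice of strain C57BL/6 received them after 4 Gy of irradiation, were then inoculated with B16F10 melanoma, and on day 10 also received Thy1.2+ activated PMEL CD8+ cells. Both groups share all of these steps. They differ in what was injected around the tumour in 4 doses from day 10, which was 20 µg of IL-10/Fc, interleukin-10 fused to an antibody Fc part, in 4 libraries and phosphate-buffered saline (PBS) in 2. On day 18, 500 Thy1.1+ CD8+ cells that bore PD-1 and TIM-3 were sorted for each library. Neither the age of the mice nor whether libraries stem from separate mice is given in the sources used here. The p-values thus rest on library-to-library spread alone, which may be technical.

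Chronic antigen drives T cells into exhaustion through a calcium signal that activates NFAT, which induces TOX and the NR4A nuclear receptors, and these factors in turn sustain inhibitory receptors and the chromatin state of exhausted cells. T-bet (Tbx21) and EOMES are related T-box factors that share target genes of effector function; T-bet is associated with effector and earlier exhausted cells and EOMES with later exhausted cells. BLIMP-1 (Prdm1) and ID2 accompany effector and terminal differentiation, ID2 by holding E proteins away from DNA. Helios (Ikzf2) is an Ikaros family factor known from regulatory T cells that is also found in exhausted cells. IL-10 acts on T cells mainly through its receptor and STAT3, and the study asked which transcripts IL-10/Fc alters in T cells at the end stage of exhaustion.

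All IL-10/Fc libraries held less Tbx21 and Nr4a1 transcript than either PBS library, and more Id2 and Prdm1. These 4 were the factors whose groups did not overlap, and each had a log2 fold change of about 1 in size. For Tox, Tox2, Ikzf2, Eomes, Nr4a1, Nr4a2 and Nr4a3 the PBS libraries lay further apart in CPM than the group means did, so this holds for Nr4a1 although its groups did not overlap. With Benjamini-Hochberg adjustment over all genes, 0 of the 10 factors passed the quasi-likelihood test of edgeR, which 0.00646% of genes passed. At an unadjusted p under 0.05 the same test held 2 of the 10 on the higher side (Id2, Prdm1), where 7.2% of all genes tested stood, and 3 on the lower side (Tbx21, Nr4a1, Nr4a2), where 5.52% stood. DESeq2 called Id2 higher and Tbx21 and Nr4a2 lower, beside backgrounds of 3.22% and 1.51%. The authors' deposited table called these 3 and also Prdm1 as higher, with 3.57% of its genes called higher and 1.72% lower. For 2 factors all 4 IL-10/Fc libraries lay above both PBS libraries, and for 2 they lay below, where 12.1% and 11.5% of all genes tested did so. The median log2 fold change of the 10 was -0.64 beside -0.0079 over all genes tested. In libraries of pooled cells, fewer cells that express a gene and less RNA per cell cannot be told apart.

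Levels are CPM, a library's counts relative to its total, scaled by TMM, which equalises libraries on the bulk of their genes. The deposited counts summed to between 26738871 and 36941814 per library, so that 3 counts equal 0.0855 to 0.108 CPM. Markers of the sorted cells were present in every library, with Cd3e at 189 to 367 CPM, Cd8a at 910 to 3161, Pdcd1 at 700 to 1578 and Havcr2, which encodes TIM-3, at 161 to 312. Most of these markers stood higher with IL-10/Fc: the 7 summed to 5208 and 6814 CPM in PBS and to 8141 to 9263 CPM with IL-10/Fc. Of the 7, 6 had a log2 fold change above 0 (median 0.70). In 5 every IL-10/Fc library lay above PBS, as in 12.1% of all genes tested. After adjustment 0 of the 7 passed edgeR's quasi-likelihood test. At an unadjusted p under 0.05 it held 5 higher and 1 lower, beside 7.2% and 5.52% of all genes tested. DESeq2 called 3 of them higher (Cd3d, Cd8b1 and Thy1) and Pdcd1 lower, beside 3.22% and 1.51% of all. The authors' deposited table called the same 3 higher, beside 3.57% of its genes, but not Pdcd1 (adjusted p = 0.0558). Cd8a stood at 910 and 2292 CPM in PBS against 2896 to 3161 CPM. The 13 macrophage markers summed to 310 and 469 CPM in PBS, and to 237, 543, 1013 and 1031 in IL-10/Fc replicates 1 to 4; 11 of the 13 had a higher mean with IL-10/Fc and Mrc1 was at 0 in both PBS libraries. Genes of MHC class II and dendritic cells (5 measured) summed to 163 and 277 CPM against 110 to 1882, and 4 melanoma genes to 0.645 and 6.34 against 4.76 to 9.04. Of 6 natural killer (NK) cell markers 4 were measured, at a sum of 97.4 and 279 CPM in PBS against 245 to 300 with IL-10/Fc. The part of these cells, and of the shift in T cell markers, in the results for the 10 factors was not tested.

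**Figure D1:**
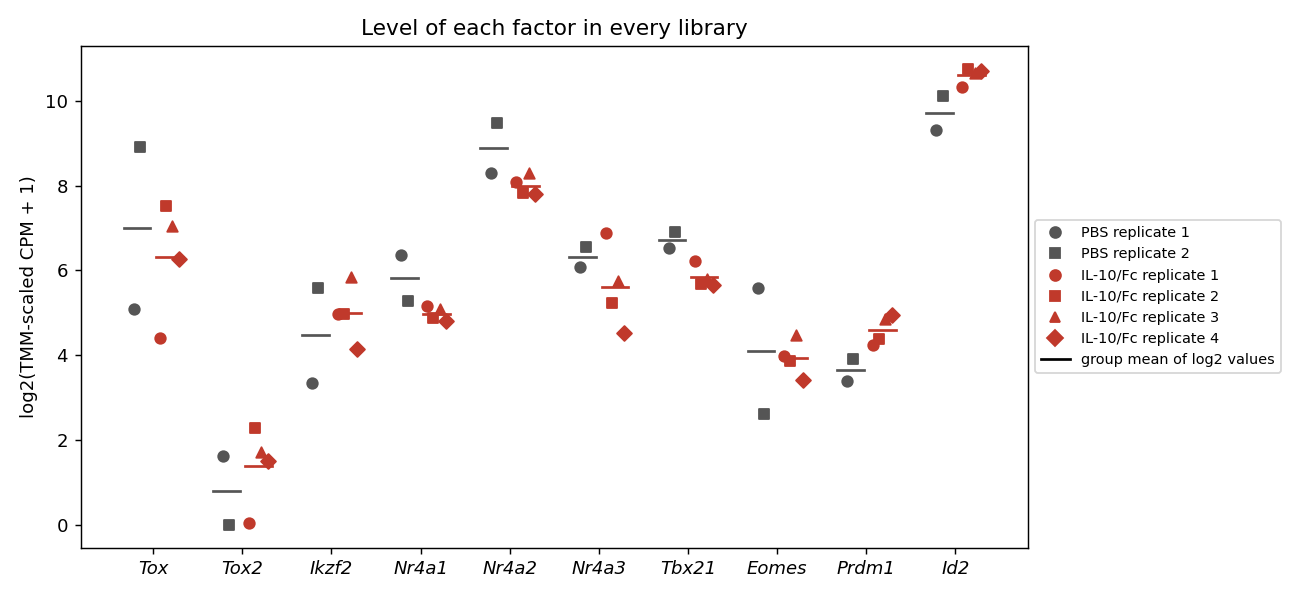
Level of the 10 factors in every library, as log2 of TMM-scaled CPM plus 1, with PBS libraries in grey, IL-10/Fc libraries in red and the mean of the log2 values as a bar. Id2 and Prdm1 lie above both PBS libraries in all 4 IL-10/Fc libraries and Tbx21 and Nr4a1 below, while Tox spreads from 20.1 to 480.5 CPM.

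T-bet, which drives effector genes such as Ifng, was the factor with the smallest p. Tbx21 (ENSMUSG00000001444, chromosome 11, 97098071 to 97115331 on GRCm38, minus strand) stood at 91.4 and 118 CPM in PBS replicates 1 and 2 and at 73.4, 50.3, 54.6 and 49.3 CPM in IL-10/Fc replicates 1 to 4. All 4 IL-10/Fc libraries were below both PBS libraries, with IL-10/Fc replicate 1 the closest to them. The means were 105 ± 19.1 CPM (SD, n = 2) and 56.9 ± 11.2 CPM (SD, n = 4), a log2 fold change of -0.88 (SE 0.20, 95% interval -1.38 to -0.39), with edgeR's adjusted p = 0.21. DESeq2 called it lower with an adjusted p of 0.00944, and the authors' deposited table gave an adjusted p of 0.0101. In DESeq2 the call was lost without PBS replicate 2 (adjusted p = 0.171) and when IL-10/Fc replicate 4 was left out (adjusted p = 0.0602), with the value still lower.

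Eomes, the second T-box factor (ENSMUSG00000032446, chromosome 9, 118478212 to 118486132), gave the extremes of its range in the PBS libraries. It stood at 46.7 and 5.10 CPM in PBS, and at 14.9, 13.6, 21.3 and 9.75 CPM under IL-10/Fc, so that every IL-10/Fc library lay between the PBS libraries. Its log2 fold change of -0.80 (SE 0.76, edgeR's quasi-likelihood test, adjusted p = 0.743) was 1.54 without PBS replicate 1 and -1.65 without PBS replicate 2. The NK cell receptor gene Klrb1c was also highest in PBS replicate 1, at 10.1 CPM against at most 0.721 CPM elsewhere. The other NK cell markers measured were not: Klre1 and Klra8 were lowest there, at 84.0 and 0.272 CPM. Klra9 was at 3.02 CPM there, inside its range of 1.54 to 19.0 CPM. The part of NK cells in the Eomes value was not tested. Eomes shares 118 bases of exon, 2.84% of its exon length, with the antisense gene Gm33460, and these libraries do not mark strand.

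The balance of the T-box pair spread widest between the PBS libraries. The log2 ratio of Tbx21 to Eomes counts was 0.967 and 4.53 in PBS, against 2.30, 1.88, 1.36 and 2.34 with IL-10/Fc. Tbx21 therefore exceeded Eomes in every library, 1.96 times in PBS replicate 1 and 23.2 times in PBS replicate 2. The mean ratio was 0.781 lower with IL-10/Fc on the log2 scale (exact permutation test, two-sided, p = 0.667, where 2 against 4 libraries cannot give less than 0.0667), and without PBS replicate 2 it was 1.002 higher. Per kilobase of exon, the pair summed to 48.0 and 48.8 CPM in PBS, and to 33.1, 23.5, 27.1 and 22.2 CPM under IL-10/Fc. The PBS libraries, which differed most in the ratio, were thus close in the sum, an observation made after the values were seen.

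**Figure D2:**
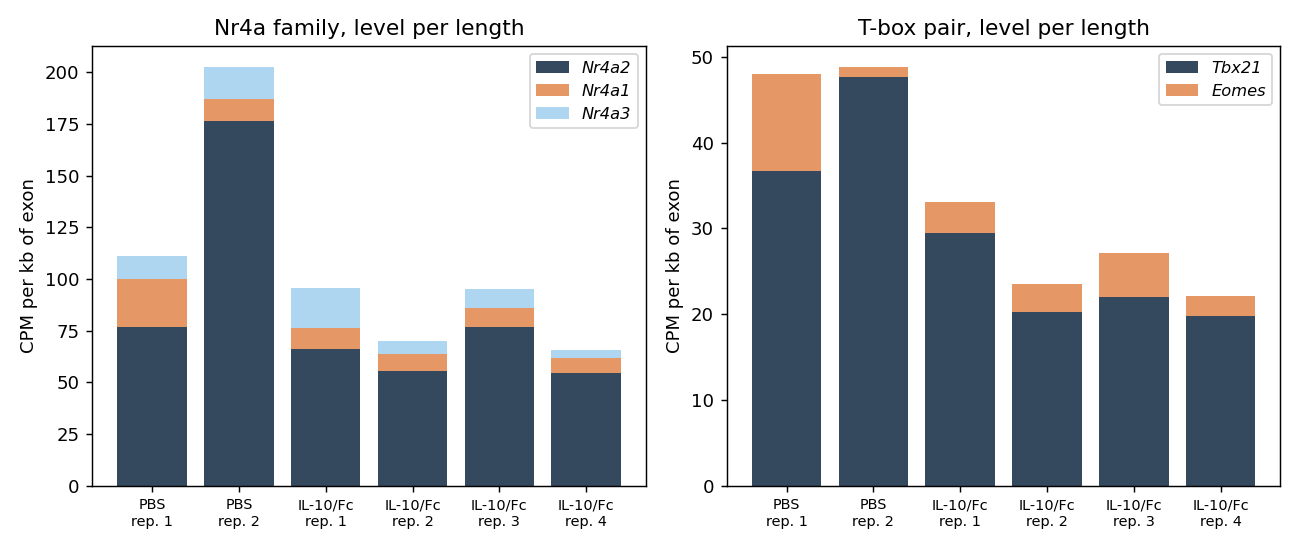
Level per kilobase of exon (CPM per kb) of the Nr4a family (left) and of Tbx21 with Eomes (right) in each library, stacked by gene. The exon length of Nr4a1 is that of a GENCODE gene longer than the deposited one. Nr4a2 holds 69.1% to 87.0% of its family, and the Tbx21 and Eomes bars reach 48.0 and 48.8 CPM per kb in PBS against 22.2 to 33.1 in IL-10/Fc.

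The NR4A receptors are orphan nuclear receptors induced within minutes to hours of T cell receptor signals, and they oppose effector genes in exhausted cells. Nr4a2 was the most abundant of the family per length in every library, with 69.1% and 87.0% of the family's CPM per kilobase in PBS against 69.3% to 82.8% with IL-10/Fc. Nr4a1 held 20.9% and 5.33% in PBS against 9.93% to 11.6% with IL-10/Fc. The GENCODE gene of Nr4a1 starts before the deposited one, so the length used may be too long. All shares of the family depend on it. The family summed to 111 and 203 CPM per kilobase in PBS, against 95.6, 69.8, 95.1 and 65.7 in IL-10/Fc replicates 1 to 4. These sums did not overlap, and for 11.5% of all genes tested the IL-10/Fc libraries likewise lay below PBS. The groups of Nr4a2, the largest part of each sum, overlapped, as did those of Nr4a3. The family is known to be induced by cyclic AMP and calcium signals, in part through CREB, which binds the cyclic AMP response element (CRE) with the full motif TGACGTCA. The 250 bases before each start site (RefSeq, GRCm38.p6, as chr15:101266596-101266845 on the plus strand for Nr4a1, chr2:57124004-57124253 on the minus strand for Nr4a2 and chr4:48045055-48045304 on the plus strand for Nr4a3) are printed because they show a feature the 3 genes share. Capitals mark the core of that element, TGACG, which reads CGTCA on the other strand, and both strands were searched:
Nr4a1: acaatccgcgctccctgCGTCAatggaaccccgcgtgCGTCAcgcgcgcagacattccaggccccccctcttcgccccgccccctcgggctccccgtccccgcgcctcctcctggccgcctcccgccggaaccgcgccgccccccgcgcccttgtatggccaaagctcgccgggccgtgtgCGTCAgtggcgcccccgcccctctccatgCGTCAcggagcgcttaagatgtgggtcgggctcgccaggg
Nr4a2: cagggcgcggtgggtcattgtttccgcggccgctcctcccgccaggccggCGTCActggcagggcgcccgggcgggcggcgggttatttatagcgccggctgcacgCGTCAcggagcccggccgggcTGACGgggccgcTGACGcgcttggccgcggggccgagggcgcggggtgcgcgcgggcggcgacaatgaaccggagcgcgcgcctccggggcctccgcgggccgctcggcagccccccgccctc
Nr4a3: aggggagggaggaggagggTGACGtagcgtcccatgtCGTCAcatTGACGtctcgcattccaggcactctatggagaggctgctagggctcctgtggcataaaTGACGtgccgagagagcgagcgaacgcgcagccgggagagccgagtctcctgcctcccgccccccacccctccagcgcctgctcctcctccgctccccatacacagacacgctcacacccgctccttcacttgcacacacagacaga
Each of the 3 windows holds 4 such cores, where 0.137% of the 32851 promoters in the table hold 4 or more in the same window and 17.8% hold 1 or more. The core was chosen after the promoters were seen. For Nr4a3 the RefSeq start site lies inside the gene as deposited, which starts at 48045153. Part of its window, with the last marked core, thus lies within that gene. The full element was in none of the 3 windows extended to 50 bases past the start site, and 1.79% of promoters hold it. A match is a description of letters and shows no binding.

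Nr4a1 (NUR77; ENSMUSG00000023034, chromosome 15, 101266846 to 101274792) stood at 81.7 and 37.9 CPM in PBS, and at 34.5, 28.2, 33.1 and 26.8 CPM under IL-10/Fc. The 4 IL-10/Fc libraries were close together and all below PBS replicate 2, which itself lay nearer to them than to PBS replicate 1. Its log2 fold change was -0.96 (SE 0.30, 95% interval -1.69 to -0.23) with edgeR's adjusted p = 0.297, and it was -0.31 without PBS replicate 1. DESeq2 gave an adjusted p of 0.0665. Its log2 fold change was -0.31 without PBS replicate 1 and -1.41 without PBS replicate 2.

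Nr4a2 (NURR1; ENSMUSG00000026826, chromosome 2, 57106830 to 57124003) stood at 312 and 716 CPM in PBS, and at 269, 226, 312 and 221 CPM under IL-10/Fc. PBS replicate 1 and IL-10/Fc replicate 3 were level, and PBS replicate 2 stood above all the others. Here too the log2 fold change, -1.001 (SE 0.32, 95% interval -1.77 to -0.23, edgeR's quasi-likelihood test, adjusted p = 0.304), rested on 1 PBS library, since it was -0.28 without PBS replicate 2. DESeq2 called it lower at an adjusted p of 0.0375, and lost it without PBS replicate 2 (adjusted p = 0.628) and on leaving out IL-10/Fc replicate 1, 2 or 4 (adjusted p = 0.0636, 0.102 and 0.138). The PBS library that was high for Nr4a2 was thus the low one for Nr4a1. With counts scaled by library size alone, all 4 IL-10/Fc libraries were below both PBS libraries for Nr4a2 as well.

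Nr4a3 (NOR1; ENSMUSG00000028341, chromosome 4, 48045153 to 48086447) stood at 66.5 and 92.7 CPM in PBS, and at 117, 36.8, 53.1 and 21.9 CPM under IL-10/Fc. Its highest value came from IL-10/Fc replicate 1 and the other 3 IL-10/Fc libraries were below both PBS libraries. The log2 fold change was -0.48 (SE 0.62, edgeR's quasi-likelihood test, adjusted p = 0.83). It was -1.10 when IL-10/Fc replicate 1 was left out. Across the family, Nr4a3 was the gene with the wider spread inside the IL-10/Fc group, 5.34-fold from lowest to highest, against 1.29-fold for Nr4a1 and 1.41-fold for Nr4a2.

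TOX, an HMG-box protein required for the exhausted state, showed the widest spread of the 10 in both groups on the log2(CPM + 1) scale. Tox (ENSMUSG00000041272, chromosome 4, 6686353 to 6991557) stood at 33.1 and 480.5 CPM in PBS, and at 20.1, 181, 132 and 75.6 CPM under IL-10/Fc. These values rest on 975 and 14705 counts in PBS and on 600 to 5190 counts in IL-10/Fc, and amplified reads are not independent molecules. The PBS libraries differed 14.5-fold, more than 99.9% of all genes tested did on the log2(CPM + 1) scale, and the IL-10/Fc libraries 9.004-fold, more than 99.2%. The group means of 257 ± 316 CPM (SD, n = 2) and 102 ± 69.7 CPM (SD, n = 4) differ by less than the PBS standard deviation. The log2 fold change of -1.33 (SE 1.08, 95% interval -3.93 to 1.28, edgeR's quasi-likelihood test, adjusted p = 0.688) was -2.23 without PBS replicate 1 and 1.63 without PBS replicate 2. Both directions of change lie inside that interval. Tox shares 260 bases of exon, 3.42% of its exon length, with the antisense gene Gm11802.

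Tox2, the paralogue of Tox, was near the detection limit. It had 61 and 0 counts in PBS, where 0 counts allow up to 0.0980 CPM, and 1, 111, 64 and 65 counts in IL-10/Fc replicates 1 to 4. Of the 6 libraries, PBS replicate 2 and IL-10/Fc replicate 1 thus had 1 count or none while the others had 1.85 to 3.87 CPM. The log2 fold change was 0.96 (SE 1.92, edgeR's quasi-likelihood test, adjusted p = 0.904). Tox made up 87.7% to 100% of the pair per length in PBS against 94.8% to 99.6% with IL-10/Fc.

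Helios, like TOX, was low in PBS replicate 1 and high in PBS replicate 2. Ikzf2 (ENSMUSG00000025997, chromosome 1, 69531214 to 69687245) stood at 9.24 and 47.1 CPM in PBS, and at 30.6, 30.2, 56.5 and 16.7 CPM under IL-10/Fc, so that 3 of the 4 IL-10/Fc libraries lay between the PBS libraries. The log2 fold change of 0.25 (SE 0.71, 95% interval -1.47 to 1.96, edgeR's quasi-likelihood test, adjusted p = 0.939) was -0.49 without PBS replicate 1, 1.86 without PBS replicate 2 and -0.12 without IL-10/Fc replicate 3. The PBS gap of 5.10-fold was wider than that of 98.6% of all genes tested. The range over the IL-10/Fc libraries was wider than that of 90.7%, both on the log2(CPM + 1) scale. Ikzf2 shares 144 bases of exon, 1.24% of its exon length, with the antisense gene Gm29114. In PBS replicate 2, where Tox and Ikzf2 were high, Eomes was at its lowest, and in PBS replicate 1 this order was turned round.

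**Figure D3:**
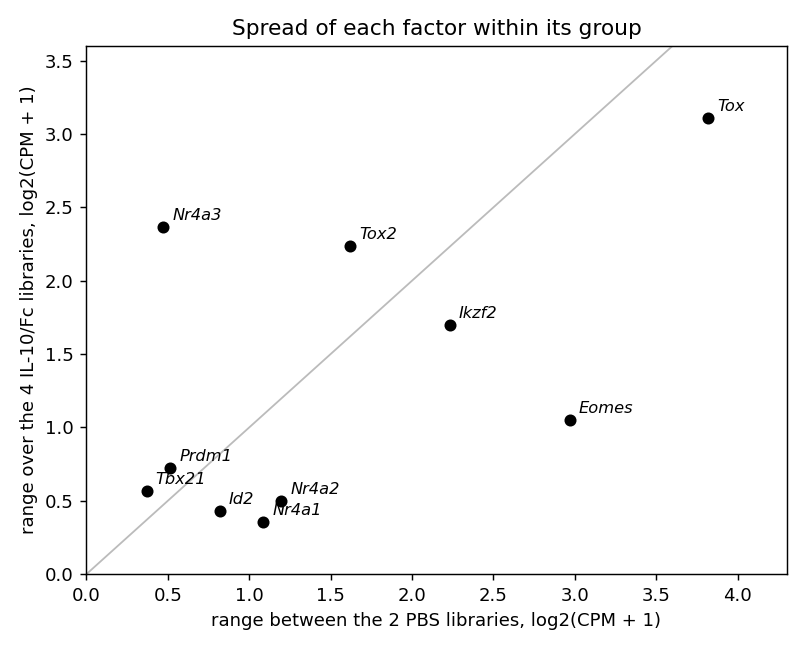
Range of log2(CPM + 1) of each factor between the 2 PBS libraries (horizontal) and over the 4 IL-10/Fc libraries (vertical), with the line of equal ranges in grey. A range over 4 libraries tends to exceed one over 2 at equal spread, so the line is only a visual guide. Tox is far out on both axes at 3.82 and 3.11, and Ikzf2 lies at 2.23 and 1.70. Eomes is far out mainly on the PBS axis, and Nr4a3 mainly on the IL-10/Fc axis.

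ID2 was the most abundant of the 10 and was higher with IL-10/Fc. Id2 (ENSMUSG00000020644, chromosome 12, 25093801 to 25096092) stood at 629 and 1110 CPM in PBS, and at 1280, 1727, 1599 and 1672 CPM under IL-10/Fc. All 4 IL-10/Fc libraries were above both PBS libraries, and PBS replicate 1 was the lowest of all. The means were 870 ± 340 CPM (SD, n = 2) and 1569 ± 200 CPM (SD, n = 4), with a log2 fold change of 0.85 (SE 0.25, 95% interval 0.25 to 1.45) and, in edgeR's quasi-likelihood test, adjusted p = 0.276. DESeq2 called it higher (adjusted p = 0.0154), as did the authors' deposited table (adjusted p = 0.0248). Without PBS replicate 1 the edgeR log2 fold change was 0.50 and DESeq2's call was lost (adjusted p = 0.134), as it was without IL-10/Fc replicate 2 (adjusted p = 0.0626) or 4 (adjusted p = 0.084).

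BLIMP-1, a repressor of memory genes, was low in level and also higher with IL-10/Fc. Prdm1 (ENSMUSG00000038151, chromosome 10, 44437177 to 44528501) stood at 9.55 and 14.1 CPM in PBS, and at 17.8, 19.8, 27.9 and 30.1 CPM under IL-10/Fc. Every IL-10/Fc library exceeded both PBS libraries, with replicates 3 and 4 furthest above them, and these were also the libraries with the most macrophage transcript. BLIMP-1 is also expressed by macrophages, and their part in this value was not tested. The log2 fold change was 1.02 (SE 0.32, 95% interval 0.25 to 1.78) with edgeR's adjusted p = 0.294 and 0.0583 by DESeq2. By edgeR the fold change was 0.76 without PBS replicate 1 and 1.32 without PBS replicate 2. When IL-10/Fc replicate 1, 2, 3 or 4 was left out, DESeq2's adjusted p was 0.0329, 0.0698, 0.175 and 0.238. The authors' deposited table gave an adjusted p of 0.0457.

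**Figure D4:**
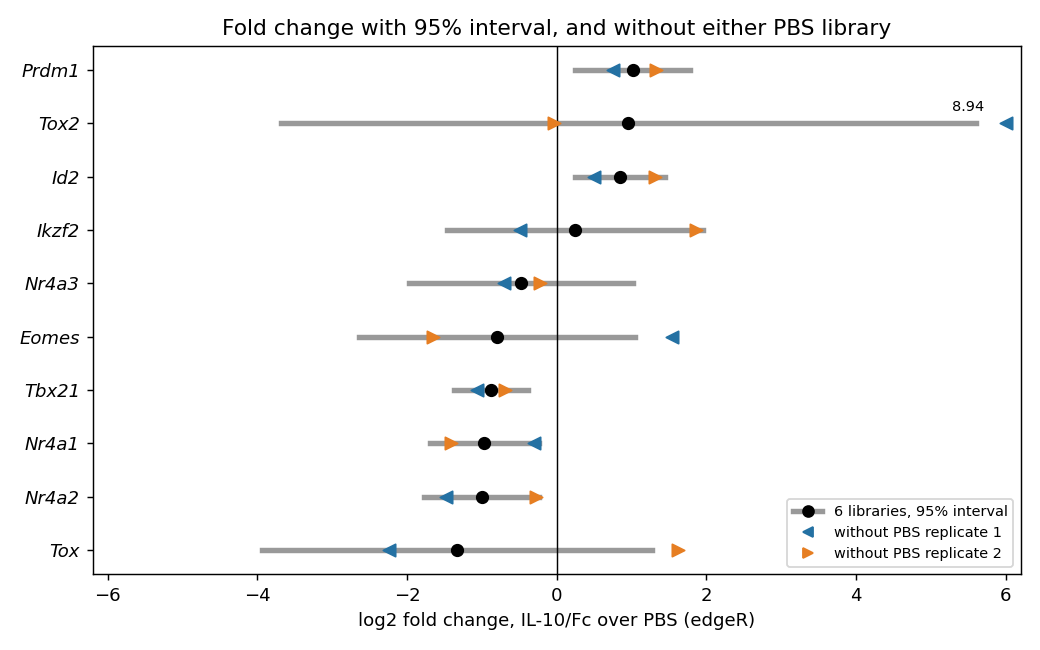
Log2 fold change of IL-10/Fc over PBS for each factor by edgeR (black, with the 95% interval in grey), and the same without PBS replicate 1 (blue) or PBS replicate 2 (orange). Tox, Eomes, Ikzf2 and Tox2 change sign with the PBS library left out, while Tbx21, Nr4a1, Nr4a2, Nr4a3, Id2 and Prdm1 keep theirs; the arrow of Tox2 at the right edge stands for 8.94, a value set by the single PBS library at 0 counts.

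Compared per kilobase of exon over all 6 libraries, the order of mean levels was Id2 (548 CPM per kilobase), Nr4a2 (84.4), Tbx21 (29.3), Tox (20.2), Nr4a1 (11.5), Nr4a3 (10.8), Eomes (4.47), Prdm1 (3.56), Ikzf2 (2.73) and Tox2 (0.497). This order pools both groups and changes within them: with IL-10/Fc, Nr4a3 (9.54) was above Nr4a1 (8.74) and Prdm1 (4.28) above Eomes (3.58), and in PBS, Ikzf2 (2.43) was above Prdm1 (2.12). Id2 was above every other factor in every library. For Id2 and Nr4a1 the length came from GENCODE genes longer than the deposited ones, so their levels per kilobase may be too low. The order of Nr4a1 and Nr4a3 with IL-10/Fc may depend on that length. Tox ran from 2.64 to 63.1 CPM per kilobase, which spans the levels of Tbx21, Nr4a1 and Nr4a3, so it did not differ from these neighbours beyond its own spread. The ranges of Nr4a1 and Nr4a3 overlapped, as did those of Eomes, Prdm1 and Ikzf2.

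For each factor, the gene of at least 20 CPM with the most similar pattern over the 6 libraries was found by Pearson's r of log2(CPM + 1), among 4612 or 4613 named genes. The points share the libraries and their scaling, and picking the best of so many genes over 6 points itself gives a high r. The value is thus given as a description. It also leaves out the size of a change: Nop10 ran from 151 to 168 CPM, where Nr4a2 ran from 221 to 716 CPM. For Nr4a1 it was Crtam (r = 0.998), a receptor of activated cytotoxic cells, at 576 and 95.02 CPM in PBS, against 64.5, 44.8, 70.9 and 37.8 CPM with IL-10/Fc. For Id2 it was the actin gene Actg1 (r = 0.997), for Tox Gnl2 (r = 0.997), for Prdm1 the caspase gene Casp6 (r = 0.988) and for Nr4a2 Nop10 (r = 0.988). For the others it was Ikzf2 with Pnrc2 (r = 0.984), Nr4a3 with Gadd45gip1 (r = 0.982), Eomes with Emc3 (r = 0.981), Tbx21 with Gltscr2 (r = 0.971) and Tox2 with Xbp1 (r = 0.967).

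Upstream of TOX and the NR4A receptors, the list of NFAT factors and calcineurin subunits held 8 genes, of which 0 passed edgeR's quasi-likelihood test after adjustment over all genes, 1 had an unadjusted p under 0.05, on the higher side (7.2% of all genes tested), and DESeq2 called 1 higher (3.22% of all). By sign 5 were higher and 3 lower, with a median log2 fold change of 0.24. The gene called was Nfatc2, which encodes the calcium-regulated factor NFAT1, at 4.89 and 3.43 CPM in PBS, against 15.1, 10.3, 8.29 and 8.32 CPM with IL-10/Fc, with every IL-10/Fc library above PBS. Its log2 fold change was 1.33 (SE 0.38, edgeR's quasi-likelihood test, adjusted p = 0.269), and DESeq2 gave an adjusted p of 0.0385. The calcineurin subunit genes Ppp3cb, Ppp3r1 and Ppp3cc had log2 fold changes of 0.37, 0.33 and -0.29, each with overlapping groups.

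Of 18 partner and opposing transcription factors, 0 passed edgeR's quasi-likelihood test after adjustment and 5 had an unadjusted p under 0.05, 3 higher and 2 lower, beside 7.2% and 5.52% of all genes tested. By sign 12 were higher and 6 lower, with a median log2 fold change of 0.30. DESeq2 and the authors' deposited table each called 1, Satb1, as higher, as they did 3.22% and 3.57% of all genes. SATB1 is a chromatin organiser that represses Pdcd1 in activated T cells; Satb1 stood at 51.6 and 27.9 CPM in PBS, and at 209, 117, 112 and 111 CPM under IL-10/Fc (log2 fold change 1.79, SE 0.40, edgeR's quasi-likelihood test, adjusted p = 0.2). Bhlhe40 stood at 685 and 682 CPM in PBS, and at 428, 449, 623 and 393 CPM under IL-10/Fc, below both PBS libraries throughout. Runx1 stood at 18.7 and 11.4 CPM against 20.5 to 24.7 CPM. Myb, a factor of stem-like exhausted cells, was at 46.9 CPM in PBS replicate 1 and between 8.75 and 14.8 CPM in the other 5 libraries. Tcf7, which encodes TCF-1, was named after its values were seen. It was likewise highest in PBS replicate 1, at 12.1 CPM against at most 6.3 CPM elsewhere. Other factors of the list, also named after their values were seen, were mixed. Lef1 was highest in PBS replicate 1 (39.7 CPM), and Bach2 was level there and in IL-10/Fc replicate 1 (9.78 and 9.79 CPM). Id3 was highest in IL-10/Fc replicate 3 (7.46 CPM, against 4.55 in PBS replicate 1). Foxo1 was lowest in PBS replicate 1 (29.5 CPM).

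**Figure D5:**
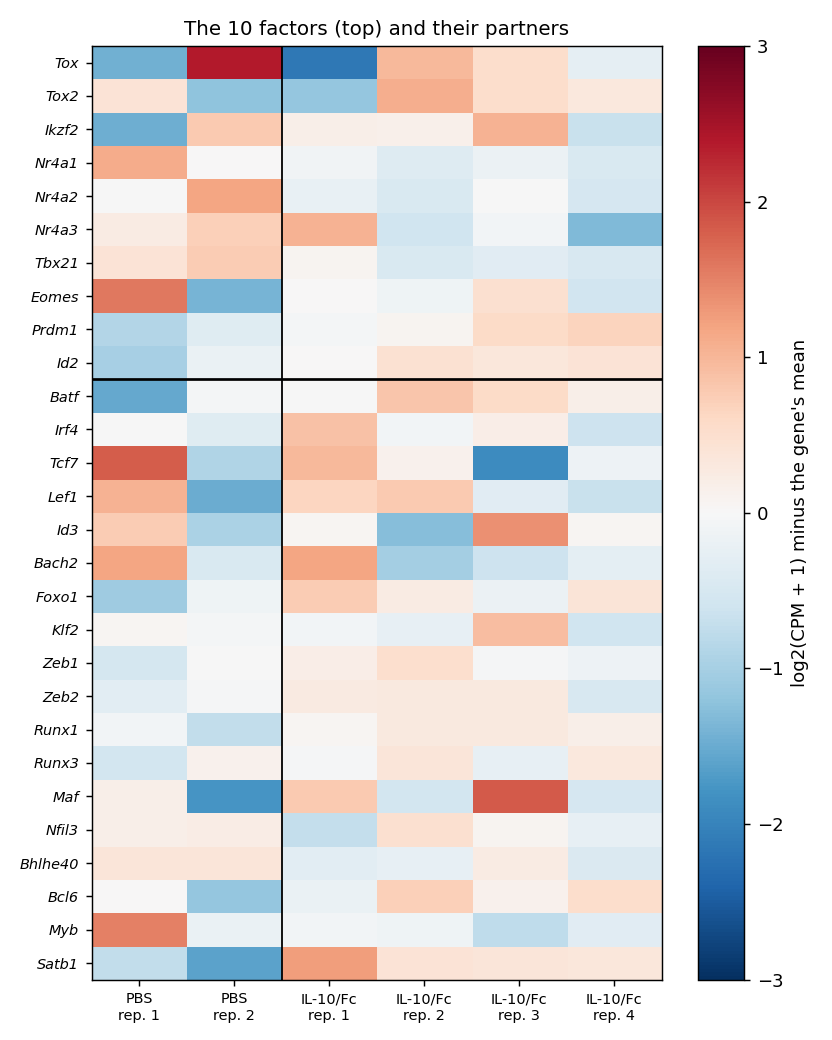
Levels of the 10 factors (above the line) and of the 18 partner and opposing factors (below), as log2(CPM + 1) minus the gene's mean over the 6 libraries, with PBS libraries left of the vertical line. PBS replicate 1 differs from PBS replicate 2 in Tox, Ikzf2, Eomes, Tcf7 and Myb, and Satb1 is above both PBS libraries in all 4 IL-10/Fc libraries.

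Among relatives of the factors and the E proteins that ID2 binds, 10 of 13 listed genes were measured. After adjustment 0 passed edgeR's quasi-likelihood test, and 2 had an unadjusted p under 0.05, 1 higher and 1 lower (7.2% and 5.52% of all genes tested). DESeq2 called 1, Ikzf1, as higher (3.22% of all), and by sign 7 were higher and 3 lower. Ikzf1 (Ikaros), the founding member of the family of Ikzf2, stood at 52.1 and 50.1 CPM in PBS, and at 113, 107, 75.9 and 97.0 CPM under IL-10/Fc. Unlike Ikzf2, its PBS libraries were close and its groups did not overlap (log2 fold change 0.94, SE 0.18, edgeR's quasi-likelihood test, adjusted p = 0.19; DESeq2 adjusted p = 4.64e-04); the difference between the 2 genes was not tested. The E protein gene Tcf4 stood at 3.97 and 5.10 CPM against 0.771 to 2.57 CPM. Ikzf5 and Id1 had log2 fold changes of 0.35 and 0.96 with adjusted p of 0.613 and 0.638 by edgeR's quasi-likelihood test.

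Genes that these factors are known to act on were described by the same counts. Of 10 T-box target genes, 0 passed edgeR's quasi-likelihood test after adjustment, 4 had an unadjusted p under 0.05, all higher (7.2% of all genes tested), and DESeq2 called 2 higher (3.22% of all). By sign the list split into 5 higher and 5 lower, with a median log2 fold change of 0.22. The genes called were Gzmb and the chemokine gene Ccl5, the latter at 2501 and 5179 CPM in PBS, against 8693, 10933, 7642 and 8426 CPM with IL-10/Fc. Perforin (Prf1) stood at 184 and 524 CPM against 597 to 764 CPM and Il12rb2, a chain of the IL-12 receptor, at 79.4 and 68.0 against 93.9 to 115 CPM. These 4, the genes of the list with the smallest p, were above both PBS libraries in all 4 IL-10/Fc libraries, as were 12.1% of all genes tested; the groups of the other 6 overlapped.

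Of 11 measured exhaustion surface genes, 0 passed edgeR's quasi-likelihood test after adjustment, 3 had an unadjusted p under 0.05, 2 higher and 1 lower (7.2% and 5.52% of all genes tested), and DESeq2 called Cd160 higher and Pdcd1 lower (3.22% and 1.51% of all). By sign 7 were higher and 4 lower, with a median log2 fold change of 0.29. Pdcd1, which encodes PD-1 and was also a marker of the sort, stood at 1578 and 1286 CPM in PBS, and at 700, 1112, 994 and 867 CPM under IL-10/Fc (log2 fold change -0.64, SE 0.19, edgeR's quasi-likelihood test, adjusted p = 0.285; DESeq2 adjusted p = 0.0416). The authors' deposited table called Cd160 higher (3.57% of its genes) and did not call Pdcd1 (adjusted p = 0.0558). The inhibitory receptor gene Cd160 stood at 253 and 159 CPM against 430 to 485 CPM. The ectoenzyme gene Entpd1 (CD39) stood at 137 and 298 CPM against 350 to 412 CPM, and Cd38 at 39.0 and 215 CPM against 294 to 362 CPM. Pdcd1 was thus below both PBS libraries, and Cd160, Entpd1 and Cd38 above them, in all 4 IL-10/Fc libraries, beside 11.5% of all genes tested below and 12.1% above. These are the 4 genes of the list with the smallest p, and the groups of the other 7 overlapped.

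Of 8 measured genes that BLIMP-1 represses in T cells, 0 passed edgeR's quasi-likelihood test after adjustment, 1 had an unadjusted p under 0.05, on the lower side (5.52% of all genes tested), and DESeq2 called that gene, Ccr7, lower (1.51% of all). By sign 5 were higher and 3 lower, with a median log2 fold change of 0.13. Ccr7, a homing receptor gene of naive and memory cells, stood at 4010 and 548 CPM in PBS, and at 232, 108, 120 and 129 CPM under IL-10/Fc (log2 fold change -3.95, SE 0.72, edgeR's quasi-likelihood test, adjusted p = 0.172; DESeq2 adjusted p = 9.5e-05). All 4 IL-10/Fc libraries were below both PBS libraries, which themselves differed several-fold, with PBS replicate 1, the library lowest in Prdm1, at the top. Bcl6, whose product and BLIMP-1 repress each other's genes, stood at 131 and 58.0 CPM against 113 to 214 CPM, and Il2 at 4.59 and 4.35 CPM against 4.65 to 5.80 CPM.

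The NR4A genes are early response genes and change with the handling of cells, so 15 immediate early genes were set beside them, of which 14 were measured. After adjustment 0 passed edgeR's quasi-likelihood test, and 4 had an unadjusted p under 0.05, 1 higher and 3 lower (7.2% and 5.52% of all genes tested). DESeq2 called Dusp1 and Ier2 lower (1.51% of all). By sign 5 were higher and 9 lower, with a median log2 fold change of -0.31. Ier2 stood at 245 and 220.5 CPM in PBS, and at 99.8, 166, 139 and 109 CPM under IL-10/Fc, and Dusp2, a phosphatase induced by T cell receptor signals, at 822 and 296 CPM against 254 to 350 CPM. Dusp2 thus shared with Nr4a1 a PBS replicate 1 far above all other libraries. Jun lay on the other side, at 3.23 and 1.73 CPM against 4.26 to 8.09 CPM. The part of handling or of early response in the NR4A values was not tested.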

How the data were processed

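RNA of 6 sorted T cell samples, 2 PBS and 4 IL-10/Fc, was sequenced as Smart-Seq2 libraries of 500 cells each. Smart-Seq2 copies whole polyadenylated transcripts, marks neither strand nor molecule, and so counts PCR copies as reads. The authors deposited counts of whole reads by gene, equal in the per-sample tables and the series table. Per the submitters' processing notes, the build was GRCm38 (mm10) and the tools included DESeq2, Cufflinks 2.2.1 with Cuffdiff, TopHat2 2.1.1, Bowtie2 2.2.9 and Trimmomatic; the tool that counted reads is not named in the sources used here. The authors' deposited table also holds log2 fold changes with standard errors, a score (the log2 fold change over its error), p-values and a mean signal per gene. Its 15898 genes make up the totals.

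Genes were kept with filterByExpr, counts scaled by TMM (factors 0.950 to 1.10) and tested with edgeR 4.0.16 (quasi-likelihood, robust, two-sided, group as sole term, R 4.3.3), with Benjamini-Hochberg adjustment at 0.05 over 15477 genes. The standard error is the log2 fold change over the root of F. Alternatives were DESeq2 1.42.0 (size factors, and Wald test), limma-voom (limma 3.58.1), library size scaling, other count filters, a fit without the robust option, a block for the replicate number and leaving out single libraries. DESeq2 without each library was added after seeing the data. The fits were tested on simulated data. Exon lengths and overlapping genes came from GENCODE M21 (GRCm38), whose coordinates equal the deposited ones for 8 of the 10 genes (not Id2 and Nr4a1), promoters from RefSeq (GRCm38.p6), where 8 of the 10 genes had an entry. Motifs searched on both strands of 300-base promoters, with the share of all promoters holding them, were AP-1, CRE, NFAT, STAT (TTCNNNGAA, 8.30%) and the NR4A site NBRE (AAAGGTCA, 1.51%). Tox and Ikzf2 had no entry and were not searched. In the entries of the other 8 genes the sole matches were in Prdm1 and Eomes. Prdm1 held an AP-1 motif (TGANTCA, in 7.81% of all promoters) and Eomes an NFAT motif (TGGAAA, in 21.4%).

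The members and lists were chosen with earlier results of these data known. Beside the 10 factors, the genes named are up to 4 of each list with the smallest p and the gene most alike each factor; others are said to be chosen after their values were seen, apart from cell type markers. A gene that this rule would name is not reported here. Floors and intervals cover counting error or the spread between these libraries. The column headers number the PBS libraries 2 and 3 and the titles 1 and 2; the titles were followed.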

Additional observations from a re-analysis of the deposited data

How the results depend on the processing

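The number of the 10 factors past the threshold was 0 by edgeR's quasi-likelihood test and stayed at 0 in 13 of 14 alternatives; the DESeq2 Wald test called 3. Without single libraries that DESeq2 count ranged from 0 (without IL-10/Fc replicate 4) to 5 (without PBS replicate 2, when Id2, Prdm1 and Ikzf2 were called higher and Nr4a1 and Eomes lower) and was 1 without IL-10/Fc replicate 2. DESeq2 also called 1 gene in each of the lists of NFAT and calcineurin, partner factors, relatives and BLIMP-1 targets, and 2 in each of the lists of surface genes, T-box targets and immediate early genes, where edgeR called 0. The median log2 fold change of the 10 ranged from -0.90 to -0.13 without single libraries, the latter without PBS replicate 2, and was -0.20 in the fit with a replicate block. The difference between groups in the mean log2 ratio of Tbx21 to Eomes, IL-10/Fc minus PBS, ranged from -2.56 to 1.002 without single libraries. Signs turned for Eomes (-1.65 to 1.54 without single libraries), Ikzf2 (-0.49 to 1.86), Tox (-2.23 to 1.63) and Tox2 (-0.0403 to 8.94, the latter set by a PBS library at 0 counts); no other factor changed sign in any of the alternatives run. The cause was not tested. With scaling by library size alone the median of all genes tested moved from -0.0079 to -0.18, and no factor changed direction. Fits that leave out a PBS library take the spread of the lone one from the other group. The block used replicate numbers that the labels do not tie to a shared source, and left 1 residual degree of freedom; deviations of libraries with the same number correlated at 0.062 (replicate 1) and 0.013 (replicate 2), and the block changed no call. Taken within replicate numbers 1 and 2, the mean difference in the log2 ratio of Tbx21 to Eomes, IL-10/Fc minus PBS, was -0.66. Tox2 was not among the genes of at least 20 CPM in 2 libraries and was not tested there. Among the 10, Tox2 was the gene with libraries under 3 counts.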
